A study of Mus musculus with 4 samples.

Results

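Central carbon metabolism was examined here as 1 set of genes: the enzymes of glycolysis with 2 glucose carriers, lactate dehydrogenase, the pyruvate dehydrogenase complex and its kinases, the pentose phosphate pathway and the citrate cycle. The genes were listed by symbol, 46 names for 45 genes because pyruvate kinase M was entered under its current and its older symbol. All 4 tables used Pkm, and 43 of the 45 genes had rows of their own, among 22662 genes joined across the tables. The other 2, Eno1 and Tkt, occurred in rows shared with another gene (Eno1 with Eno1b, and Tkt with the microRNA Mir3076). Those rows are given as values and left out of every count except those of promoters and loci.

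RNA was sequenced from kidneys of mouse embryos of mixed strain at E18.5, to ask what depends on Hnf4a, a nuclear receptor of the proximal tubule. The 2 control libraries were Hnf4a c/+ with Six2GFPcre, so 1 conditional allele, and the 2 mutant libraries were Hnf4a c/c with Six2GFPcre, so both alleles conditional. Both groups carried the Cre, which is driven by Six2 in nephron progenitors and reaches only the cells that descend from them. The controls could therefore lose 1 copy of Hnf4a in the same cells, while stroma, vessels and collecting ducts of the mutants are outside its reach. The labels do not say whether libraries came from separate animals or pools, so p-values measure only the spread between these libraries.

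Glycolysis splits glucose into pyruvate in the cytosol and yields a little ATP without oxygen. Pyruvate is either reduced to lactate or taken into mitochondria, where pyruvate dehydrogenase makes acetyl-CoA for the citrate cycle, and the pentose phosphate pathway branches off to make NADPH and ribose. In the mature kidney the proximal tubule makes glucose and burns mostly fatty acids and other non-sugar fuels, whereas glycolysis is used more by distal segments, by the medulla and by the undifferentiated progenitors of the embryo. Many of the steps have several isoenzymes encoded by separate genes, some of them restricted to certain tissues, such as the liver- and proximal tubule-type pyruvate kinase Pklr.

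None of the 43 genes passed an adjusted p under 0.05 in limma across all 13287 genes tested. The background was low as well, since 0.158% of all genes passed, 15 lower (0.113%) and 6 higher (0.0452%) in the mutant libraries. At an unadjusted p under 0.05, 2 members were lower, Pklr and Idh1 (the cytosolic NADP-dependent isocitrate dehydrogenase), against 4.57% of all genes lower, and 0 were higher, against 2.67%. For 34 of the 43 genes the 95% interval of the change lay within a 1.5-fold difference in either direction, as it did for 60.8% of all genes tested. The other 9 were Slc2a3, Pfkl, Pfkp, Aldoc, Eno2, Pklr, Pdk2, Pdk4 and Suclg2, so for these the 4 libraries leave room for larger differences.

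The changes were small but leaned one way in the cytosolic pathway. Among the 19 genes of glucose carriage, glycolysis and lactate formation, 17 had a negative log2 change, with a median of -0.14 on the log2(FPKM + 1) scale, where FPKM is the fragment count scaled to transcript length and to the library. Among the 15 genes of the pyruvate dehydrogenase complex and the citrate cycle, 9 were negative, with a median of -0.02. Over all genes tested, 44.7% had negative changes and the median was 0.02. The lean of the cytosolic genes was between 15 and 17 of 19 when each library was left out in turn. In 10 of these 19 genes both mutant libraries were below both control libraries, so their sign could not turn. The mitochondrial count was not stable in this way, at 14 of 15 negative without control replicate 1 and 4 of 15 without control replicate 2. The cytosolic median was -0.09 without control replicate 2 and also without mutant replicate 2. Beside this lean, all 4 stroma markers were negative too, with a median of -0.18 and summed FPKM of 466 and 409 in control and 395 and 356 in mutant libraries, and its part in the glycolytic values was not tested. Neither count was tested, since the genes were chosen with results of these data known.

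**Figure D1:**
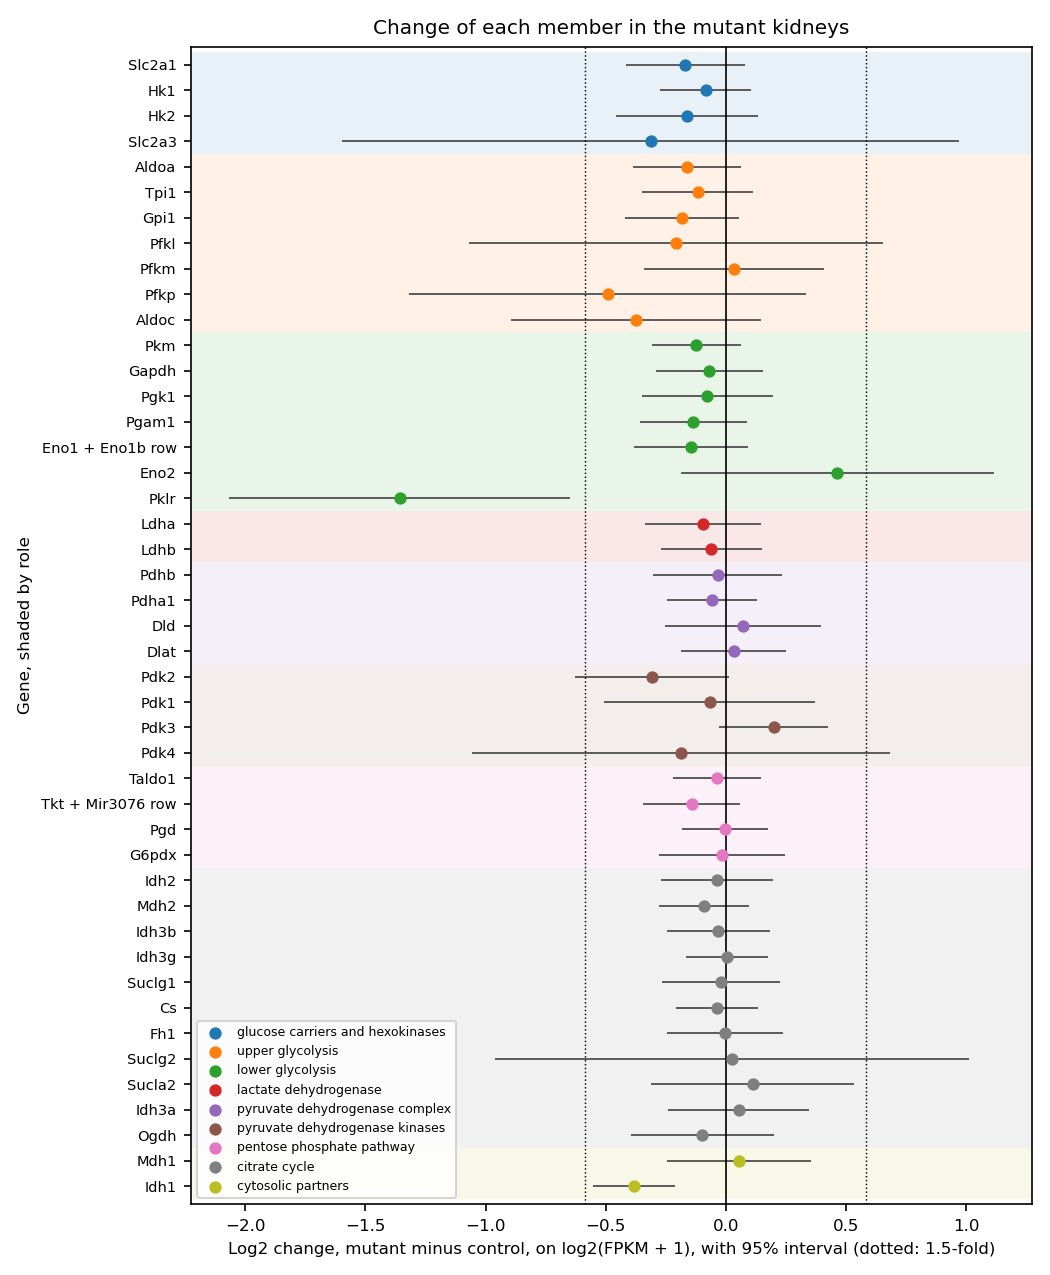
Change of each gene between mutant and control libraries (log2(FPKM + 1), horizontal axis) with its 95% interval, genes on the vertical axis coloured by role and dotted lines at a 1.5-fold difference. The intervals of Pklr and Idh1 lie below 0, and those of the other genes include it.

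By level, the cytosolic enzymes that every glycolytic cell needs were among the highest. Mean FPKM over the 4 libraries ran from 4.19 (Pdk4, a kinase that shuts off pyruvate dehydrogenase) to 212 (Aldoa, the main aldolase). Of the genes with rows of their own, Ldha, Ldhb, Tpi1, Pkm, Gapdh, Pgk1 and Pgam1 followed Aldoa, with means from 202 down to 172. FPKM is scaled to transcript length, so these levels can be set beside each other. In 33 of the 43 genes the 2 libraries of a group differed by more than the group means did, and the same held for 10057 of all 13287 genes.

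**Figure D2:**
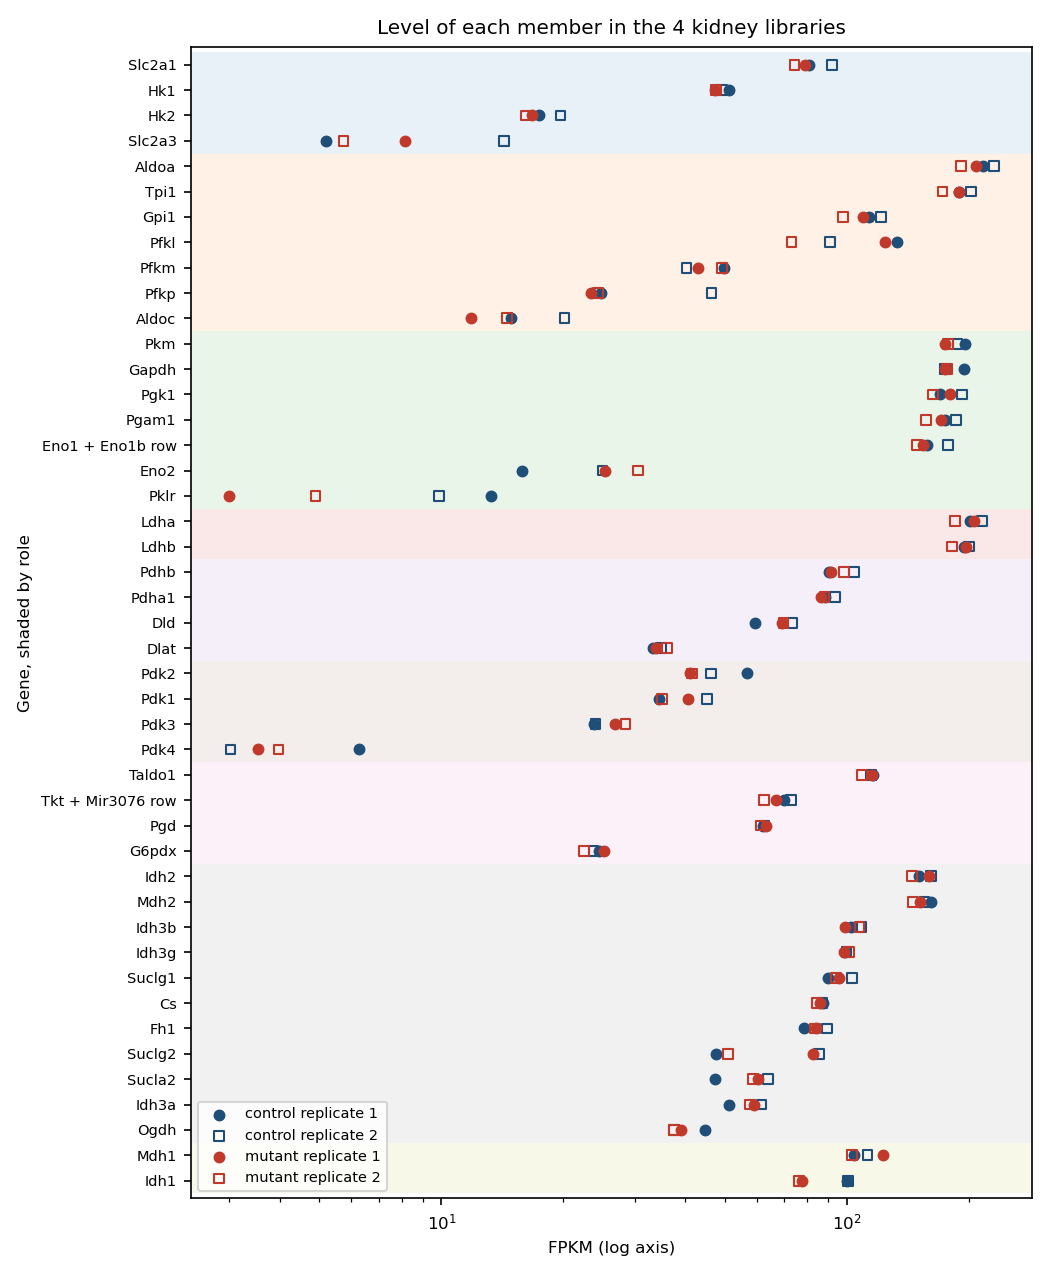
FPKM of each gene (log axis) in the 4 libraries, with control in blue, mutant in red, replicate 1 filled and replicate 2 open. Most genes have 4 closely spaced points, whereas Slc2a3, Pfkl, Pfkp, Eno2, Pklr, Pdk4 and Suclg2 spread widely.

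The markers of kidney segments were present in every library: Slc12a1 of the loop of Henle was at 70.0 to 86.4 FPKM, Aqp2 of the collecting duct at 146 to 187 and Six2 of the progenitors at 49.9 to 67.0. Hnf4a itself was at 89.3 and 84.6 FPKM in the control and 87.1 and 78.5 in the mutant libraries. That value covers the whole gene, and the sources used here do not say which part is deleted, so it does not check the genotype labels. The replicate 1 libraries carried Y-linked transcripts (Ddx3y at 27.7 and 26.4 FPKM) and the replicate 2 libraries Xist (81.0 and 74.0), so the replicate number runs with sex in both groups. No read totals are in the tables, so absolute depth is unknown.

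Pklr showed the largest difference of any member. This gene encodes the pyruvate kinase of liver, red cells and proximal tubule, which is regulated by diet and by fructose bisphosphate and makes pyruvate in the last step of glycolysis. Its locus spans positions 88940064 to 88950516 of mm9 chromosome 3. In control it measured 13.3 and 9.85 FPKM, and in mutant 2.997 and 4.89 FPKM. Both mutant values were below both control values, and the mutant mean was 34.1% of the control mean. The log2 change was -1.36 (SE 0.26, 95% interval -2.07 to -0.65), with an unadjusted p of 0.0053 and an adjusted p of 0.28 in limma. The locus ran on to 88950732 in mutant replicate 1, where it overlapped the ion channel gene Hcn3 (1.22 FPKM) by 36 bases, and in the other libraries it overlapped no named gene.

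Pkm, the pyruvate kinase of most other tissues and of fetal cells, was at 196 and 188 FPKM in control and 175 and 178 in mutant libraries, a log2 change of -0.12 (SE 0.07, adjusted p = 0.76). Again the groups did not overlap, but the mutant mean was 91.8% of control. Pklr therefore made up 6.32% and 4.98% of the summed pyruvate kinase FPKM in the control libraries and 1.69% and 2.67% in the mutant libraries. With 2 libraries a group an exact permutation test cannot give a two-sided p below 0.333, so no test of these shares is given.

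Idh1 was the member with the smallest p. Its product makes NADPH in the cytosol and in peroxisomes from isocitrate, and its locus spans 65205190 to 65233053 of mm9 chromosome 1. The control libraries had 100.4 and 100.7 FPKM, the mutant libraries 77.5 and 76.2. The 2 libraries of each group lay close together and the groups were well apart, with the mutant mean at 76.5% of control. The log2 change was -0.38 (SE 0.06, 95% interval -0.55 to -0.21), with an unadjusted p of 0.0028 and an adjusted p of 0.20. The mitochondrial counterpart Idh2 was at 150 and 162 FPKM in control and 160 and 145 in mutant libraries, where the groups overlapped (log2 change -0.04, SE 0.09, adjusted p = 0.92). Idh1 was thus 40.0% and 38.4% of the summed Idh1 and Idh2 FPKM in control, and 32.7% and 34.5% in mutant libraries.

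In both genes the groups did not overlap, so leaving out any 1 library could not turn their direction. The log2 change of Pklr was then between -1.64 and -1.08, and that of Idh1 between -0.40 and -0.37. Markers of the proximal tubule were lower beside them: all 17 genes of that list had negative changes, with a median of -1.27, and their summed FPKM was 1073 and 873 in control and 447 and 460 in mutant libraries. The part of this in the values of Pklr and Idh1 was not tested. Pklr is also a gene of liver, whose marker Alb was at 21.1 FPKM in mutant replicate 2 and at 0.295 to 1.11 in the others. Without mutant replicate 2 the change of Pklr was -1.64. Of 5 liver markers tested, 4 had positive changes. Ttr went the other way, at 14.7 and 10.9 FPKM in control and 5.51 and 9.75 in mutant libraries. Afp was positive with overlap, at 25.8 and 33.8 against 25.2 and 40.3 FPKM. In RNA from whole kidneys, fewer cells of a type and less RNA per cell cannot be told apart.

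The DNA before the transcription start is shown for 4 members, because 2 of them were highly expressed genes of glycolysis whose levels differed little and 2 were the genes with the lowest p. The windows run from 250 bases before a RefSeq start (GRCm38.p6) to the base before it, and stop earlier where a GENCODE exon of the gene begins. They are chr7:46845554-46845803 on the plus strand for Ldha, chrX:106186850-106187099 on the plus strand for Pgk1, chr3:89136373-89136571 on the plus strand for Pklr at the second of its 2 starts, and chr1:65186501-65186729 on the minus strand for Idh1. Capitals mark ACGTG or its reverse complement CACGT, the core of the element bound by hypoxia-inducible factor and by E-box proteins.
Ldha: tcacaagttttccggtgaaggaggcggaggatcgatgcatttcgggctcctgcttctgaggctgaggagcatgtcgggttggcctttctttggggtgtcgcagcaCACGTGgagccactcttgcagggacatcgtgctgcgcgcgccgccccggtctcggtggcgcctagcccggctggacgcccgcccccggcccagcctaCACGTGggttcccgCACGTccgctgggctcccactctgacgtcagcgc
Pgk1: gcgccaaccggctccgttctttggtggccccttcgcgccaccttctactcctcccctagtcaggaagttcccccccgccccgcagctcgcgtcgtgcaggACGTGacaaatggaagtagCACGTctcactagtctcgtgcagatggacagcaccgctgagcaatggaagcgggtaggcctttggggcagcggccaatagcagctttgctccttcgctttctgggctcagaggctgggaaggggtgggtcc
Pklr: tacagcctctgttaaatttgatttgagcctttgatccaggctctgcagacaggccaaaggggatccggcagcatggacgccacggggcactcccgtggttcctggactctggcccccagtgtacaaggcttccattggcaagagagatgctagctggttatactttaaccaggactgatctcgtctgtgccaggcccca
Idh1: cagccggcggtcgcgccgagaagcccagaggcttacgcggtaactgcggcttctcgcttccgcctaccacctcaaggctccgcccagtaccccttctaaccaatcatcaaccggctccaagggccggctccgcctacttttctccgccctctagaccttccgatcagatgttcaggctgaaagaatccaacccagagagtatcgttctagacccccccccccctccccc
Ldha had 5 matches in this window, counting both strands, of which 2 pairs overlap in the palindrome CACGTG, and Pgk1 had 2. The windows of Pklr and Idh1 had 0. Ldha and Idh1 also have 2 RefSeq starts each, as Pklr does. At the other start of each of these genes the promoter of 300 bases had 0 matches, for Ldha as well. The Ldha start used here lay 35 bases from the nearest GENCODE start. Other highly expressed genes of the pathway also overlapped between groups. Of these, Ldhb and Tpi1 had 0 matches in their promoters of 300 bases, and Gapdh had 1. The printed windows were picked, so they do not compare genes that differed with genes that did not.

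Over all promoters of 300 bases (250 before and 50 after the start), ACGTG on either strand was in at least 1 window of 21.8% of 27025 genes. It was in 18 of the 43 members with a window (Slc2a3 and Idh3a had no entry, whereas Eno1 and Tkt had one). By role, it was in 11 of 19 genes of glucose carriage, glycolysis and lactate formation, including Slc2a1, both hexokinases, Aldoa, Aldoc, Pfkm, Gapdh, Pgk1, Pgam1, Pkm and Ldha. It was in 3 of 14 genes of the pyruvate dehydrogenase complex and the citrate cycle. The 19 here include Eno1 and lack Slc2a3, and the 14 lack Idh3a, so both sets differ from those of the expression counts. The GC content differed between the sets, with a median of 60.2% in member windows and 52.7% in all windows. CAAAGTCCA, the form of direct repeat for which Hnf4 proteins are known, was in 0 member windows and in 0.555% of all genes, and that says only that these letters are not in these windows.

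The first steps of glucose use had a median log2 change of -0.16, and between -0.25 and -0.08 with 1 library left out. Slc2a1, the widespread basal glucose carrier, was at 80.8 and 91.8 FPKM in control and 78.9 and 74.4 in mutant libraries (log2 change -0.17, SE 0.09, adjusted p = 0.76). The groups did not overlap, but the 2 control libraries differed by more than the lower control and the higher mutant library did. Slc2a3, the high-affinity carrier typical of neurons and placenta, was at 5.202 and 14.3 FPKM in control and 8.13 and 5.74 in mutant libraries (log2 change -0.31, SE 0.48, adjusted p = 0.87). Its control libraries enclosed both mutant libraries, and the change was 0.34 without control replicate 2 and -0.96 without control replicate 1. The hexokinases, which trap glucose as glucose 6-phosphate, were lower without overlap by small amounts: the mutant mean was 94.2% of control for Hk1 and 88.7% for Hk2. Hk1 made up between 71.5% and 74.7% of the summed FPKM of the pair in the 4 libraries.

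In upper glycolysis, from glucose 6-phosphate to the triose phosphates, 6 of 7 genes had negative changes. Their median was -0.18, but -0.12 without control replicate 2 and -0.10 without mutant replicate 2. Aldoa, which splits fructose bisphosphate, was at 217 and 231 FPKM in control and 209 and 191 in mutant libraries (log2 change -0.16, SE 0.08, adjusted p = 0.76). Its isoenzyme Aldoc, known from brain, was at 14.8 and 20.1 against 11.9 and 14.5 FPKM (log2 change -0.37, SE 0.19, adjusted p = 0.76). In both genes the mutant libraries were below the control libraries, for Aldoc by a margin far smaller than the gap between its controls, and its change was -0.17 without control replicate 2 and -0.58 without control replicate 1. Gpi1, which converts glucose 6-phosphate to fructose 6-phosphate, was also lower without overlap, at 88.2% of control. Tpi1, which interconverts the 2 triose phosphates, overlapped between groups at 92.2% of control.

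Phosphofructokinase, the committed and most regulated step, gave poorly repeatable values. Pfkp, the platelet-type subunit, was at 24.7 and 46.4 FPKM in control and 23.4 and 24.3 in mutant libraries (log2 change -0.49, SE 0.31, adjusted p = 0.76). Control replicate 2 stood apart: without it the change was -0.05, and without control replicate 1 it was -0.93. Pfkl, the liver-type subunit, was at 133 and 90.8 against 124 and 73.1 FPKM, so in both groups the replicate 1 library, which carried Y-linked transcripts, was the higher one. Pfkm, the muscle-type subunit, was at 49.9 and 40.3 against 42.9 and 49.3 FPKM with overlap. Pfkl held the largest share of the summed FPKM of the 3 subunits in each library, from 49.8% to 65.2%. The loci of Pfkm and Pfkp overlapped the neighbours Senp1 and Pitrm1, by 981 and 276 bases, so reads in those stretches cannot be assigned with certainty.

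Lower glycolysis was steady apart from Pklr and Eno2. Gapdh, which makes NADH and is often used as a reference gene, was at 95.2% of control with overlap. Pgk1 and Pgam1, the next enzymes, were at 94.7% and 91.0%, the first with and the second without overlap. Eno2, the enolase known from neurons, was the member with the largest positive change, at 15.8 and 25.0 FPKM in control and 25.4 and 30.6 in mutant libraries (log2 change 0.46, SE 0.24, adjusted p = 0.76). The groups were separated only narrowly, and the change was 0.15 without control replicate 1 and 0.78 without control replicate 2. The Eno2 locus ran from 124710010 to 124719527 of mm9 chromosome 6 in control replicate 1, the lowest library, and started at 124710073 in the others. In mutant replicate 2, the highest library, an unnamed row of 304 bases at 15.4 FPKM lay within it. The part of these differences in the values of Eno2 was not tested. The row shared by Eno1, the widespread enolase, and Eno1b was at 158 and 178 against 154 and 149 FPKM. Eno2 therefore held 9.11% and 12.3% of the summed enolase FPKM in control and 14.1% and 17.0% in mutant libraries. Of 7 listed markers of neurons and nerve, the 3 that were tested had positive changes, with a median of 0.30. The list's summed FPKM was 36.6 and 36.8 in control and 43.7 and 46.9 in mutant libraries. Most of that sum was 1 gene, Uchl1, at 31.0 and 30.3 against 37.0 and 37.9 FPKM. Stmn2 overlapped between groups, and Tubb3, Snap25, Prph and Th stayed under 1 FPKM and were not tested. The part of the nerve markers in the values of Eno2 was not tested.

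Lactate dehydrogenase interconverts pyruvate and lactate, and its M and H subunits are encoded by Ldha and Ldhb. Ldha was at 201 and 216 FPKM in control and 206 and 185 in mutant libraries (log2 change -0.10, SE 0.09, adjusted p = 0.79). Ldhb was at 195 and 200 against 197 and 182 FPKM (log2 change -0.06, SE 0.08, adjusted p = 0.84). Both overlapped between groups. Ldha held 50.8% and 51.9% of the summed FPKM in control and 51.0% and 50.5% in mutant libraries, a near-even balance in each library.

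**Figure D3:**
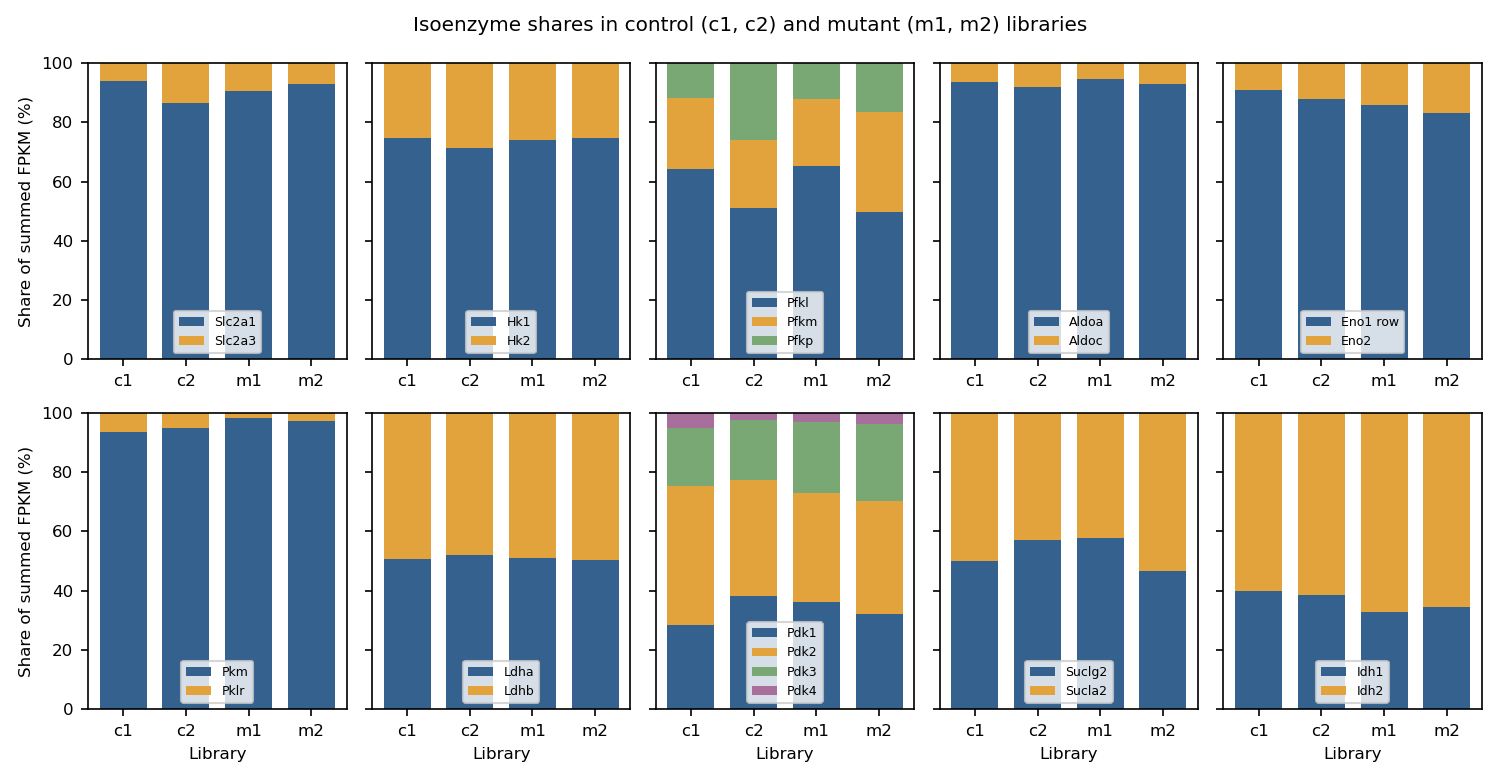
Share of each isoenzyme in the summed FPKM of its set (vertical axis, percent) in the control (c1, c2) and mutant (m1, m2) libraries. The share of Pklr is lower and that of Eno2 higher in both mutant libraries, Idh1 is lower against Idh2, and Ldha and Ldhb stay near even.

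The pyruvate dehydrogenase complex links glycolysis to the citrate cycle, and its subunits were flat. Pdhb, the beta subunit of its first enzyme, was at 90.4 and 104 FPKM in control and 91.4 and 98.5 in mutant libraries (log2 change -0.03, SE 0.10, adjusted p = 0.94). Pdha1, the X-linked alpha subunit, was at 88.4 and 93.8 against 86.6 and 88.3 FPKM (log2 change -0.06, SE 0.07, adjusted p = 0.83), without overlap but with a gap smaller than that between the controls. Dld, the dehydrogenase shared with the 2-oxoglutarate complex, was at 59.3 and 73.5 against 69.2 and 69.9 FPKM (log2 change 0.07, SE 0.12, adjusted p = 0.88). Its low value was in control replicate 1 only, without which the change was -0.08, against 0.23 without control replicate 2. Dlat, the acetyltransferase core, was at 102% of control.

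The kinases that switch the complex off by phosphorylation did not move together. Pdk2 was at 56.8 and 46.2 FPKM in control and 41.1 and 41.5 in mutant libraries (log2 change -0.31, SE 0.12, adjusted p = 0.71). Pdk3 was at 23.8 and 24.0 against 26.7 and 28.5 FPKM (log2 change 0.20, SE 0.09, adjusted p = 0.75). In both genes the groups were apart, downward in the first and upward in the second, and the change of Pdk2 was -0.16 without control replicate 1 and -0.45 without control replicate 2. Pdk1, a known target of hypoxia-inducible factor, overlapped at 94.7% of control. Pdk4, known to be induced by fasting, was at 6.26 and 3.02 against 3.54 and 3.96 FPKM, so the control libraries enclosed the mutant ones. As shares of the 4 kinases, Pdk2 was 46.9% and 39.0% in control and 36.7% and 38.1% in mutant libraries, and Pdk3 was 19.6% and 20.3% against 23.9% and 26.2%.

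The pentose phosphate pathway showed small differences. Taldo1, the transaldolase, was at 116 and 115 FPKM in control and 116 and 109 in mutant libraries (log2 change -0.04, SE 0.07, adjusted p = 0.89). The whole locus of G6pdx lay within that of Ikbkg (8.53 to 9.65 FPKM), an overlap of 19676 bases, so its reads carry the same limit as those of Pfkm and Pfkp. G6pdx, the entry enzyme, which makes NADPH, was at 24.5 and 23.7 against 25.2 and 22.5 FPKM (log2 change -0.02, SE 0.10, adjusted p = 0.98). Pgd, the second NADPH-forming enzyme, was at 99.8% of control. All 3 overlapped between groups, and the 95% interval of Pgd ran from -0.18 to 0.17. The row of transketolase, Tkt with Mir3076, was at 70.0 and 73.0 against 67.1 and 62.4 FPKM, without overlap.

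The 11 citrate cycle genes had log2 changes between -0.10 and 0.11, with a median of -0.02. Ogdh, the first enzyme of the 2-oxoglutarate complex, was at 44.7 and 37.5 FPKM in control and 39.0 and 37.5 in mutant libraries (log2 change -0.10, SE 0.11, adjusted p = 0.82). Its high value was in control replicate 1, without which the change was 0.03, against -0.22 without control replicate 2. Sucla2, the ATP-forming succinyl-CoA ligase subunit, was at 47.4 and 64.1 against 60.4 and 58.9 FPKM (log2 change 0.11, SE 0.16, adjusted p = 0.85), and its change was -0.10 without the same library and 0.32 without control replicate 2. Suclg2, the GTP-forming subunit, was at 47.6 and 85.3 against 82.4 and 51.1 FPKM, so that 1 library of each group was high and 1 low. Its assembled locus started at 95410615 of mm9 chromosome 6 in control replicate 2 and at 95423003 in the others, which does not follow these levels. Cs, citrate synthase, was highly repeatable, at 87.3 and 87.3 against 86.05 and 84.3 FPKM. It was lower without overlap at 97.6% of control, with a 95% interval from -0.21 to 0.14. Mdh2, the mitochondrial malate dehydrogenase, was at 93.9% of control without overlap, and Fh1, the fumarase, at 99.6% with overlap. The 3 subunits of the NAD-dependent isocitrate dehydrogenase (Idh3a, Idh3b, Idh3g) were at 103%, 97.9% and 100.4% of control, all with overlap.

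Mdh1, the cytosolic malate dehydrogenase of the malate-aspartate shuttle, was at 104 and 113 FPKM in control and 123 and 103 in mutant libraries (log2 change 0.06, SE 0.11, adjusted p = 0.90). The mutant libraries enclosed the control ones. Idh1 and Mdh1, both cytosolic partners of citrate cycle enzymes, thus differed in their values, with the interval of Idh1 below 0 and that of Mdh1 from -0.24 to 0.35. The difference between the 2 genes was not tested.

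In 15 of the 43 genes both mutant libraries were below both control libraries, and in 2, Eno2 and Pdk3, both were above. Over all genes tested the shares were 17.1% and 22.7%. Of the 15, 10 belonged to glucose carriage and glycolysis. The summed FPKM of the 19 genes of glucose carriage, glycolysis and lactate formation was 2059 and 2121 in control and 1993 and 1845 in mutant libraries. That of the pyruvate dehydrogenase complex and the citrate cycle was 1232 and 1361 against 1297 and 1259, with overlap. Hypoxia response genes, which share regulation with glycolysis, were lower in 10 of 15 tested cases, against 44.7% of all genes, with a median of -0.08 and summed FPKM of 601 and 680 in control and 573 and 597 in mutant libraries. Ndrg1 was the list's highest gene in control, at 99.3 and 106 against 61.7 and 63.7 FPKM. Without it, a choice made after its values were seen, 9 of 14 were negative and the sums overlapped, at 502 and 573 in control and 512 and 533 in mutant libraries. The part of this in the glycolytic values was not tested.

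Other genes of these pathways were taken from a list of 53 symbols, of which 47 were in all tables and 44 were tested. None passed an adjusted p under 0.05 in limma, and at an unadjusted p under 0.05, 10 were lower and 0 higher. The median log2 change was -0.07, and 29 of 44 were negative. The 3 with the largest changes were Fbp2, a fructose bisphosphatase, at 22.7 and 25.1 FPKM in control and 7.90 and 8.12 in mutant libraries, Pck1, which commits carbon to glucose synthesis, at 33.7 and 34.6 against 11.1 and 12.6, and Pcx, pyruvate carboxylase, at 71.0 and 51.3 against 23.2 and 24.7. All 3 act in glucose synthesis, opposite to glycolysis, and their groups were far apart (log2 changes -1.46, -1.46 and -1.30; adjusted p 0.053, 0.050 and 0.14). The value for Pck1 was 0.0504 before rounding and so missed the threshold. Chosen after its values were seen, Slc2a2, the low-affinity glucose carrier of liver and proximal tubule, was at 24.2 and 25.8 against 14.0 and 16.6 FPKM (log2 change -0.68, SE 0.12, adjusted p = 0.24). Pck1 also stands in the list of proximal tubule markers.

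**Figure D4:**
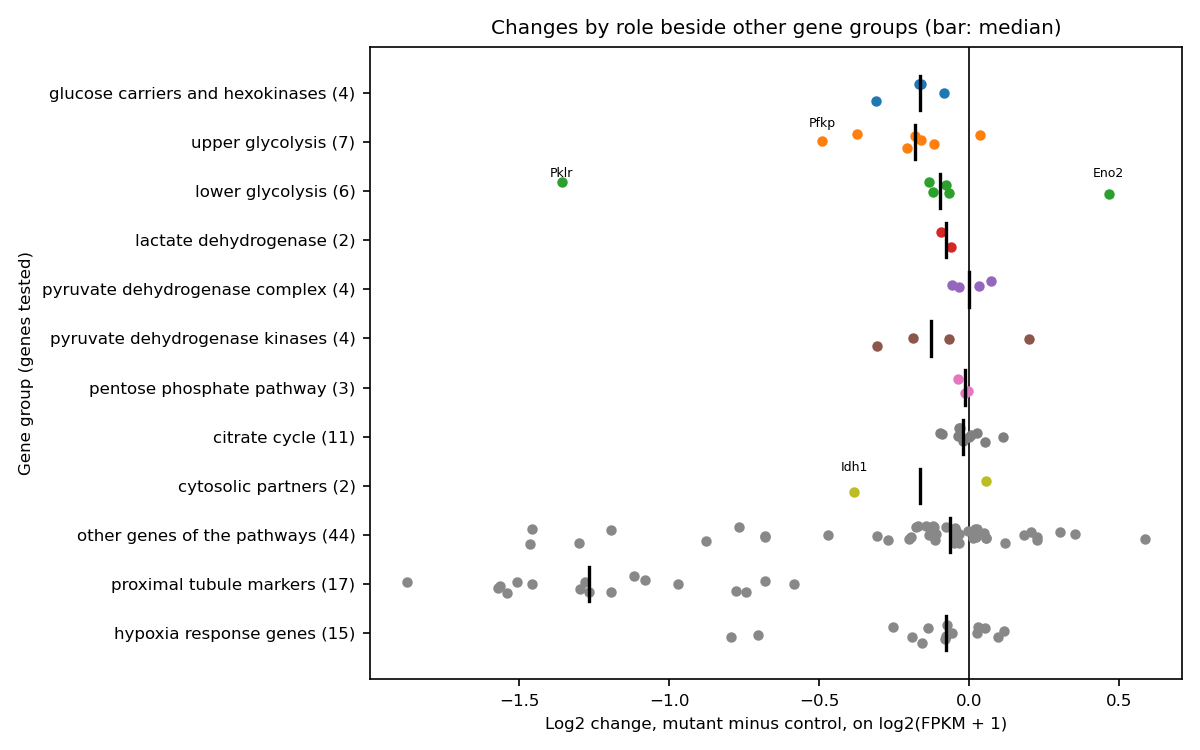
Log2 change of each gene (horizontal axis, log2(FPKM + 1)) by role, with the median as a bar, beside the other genes of the pathways, the proximal tubule markers and the hypoxia response genes. The role groups sit close to 0 apart from Pklr, while the proximal tubule markers centre on -1.27.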

How the data were processed

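Per the labels' protocols, poly(A) RNA of embryonic kidneys went into a kit for DNA libraries; strand is not mentioned. The FPKM values were computed by the authors, 1 deposited table per library, with the bounds of an interval for each value; the submitters' processing notes name TopHat2 2.0.11, Bowtie 1.0.0, SAMtools 0.1.19, Cufflinks 2.1.1 and genome build mm9. Some values lay outside the bounds of their own interval, such as Pgk1 in control replicate 2 (192.9 FPKM, bounds 165.1 and 183.8). These bounds were not used here. Annotation and settings were not given in the sources used here. Each table numbers its genes separately, as an assembly made library by library would, and 11 of the 45 loci followed here differed in their ends between libraries. Locus starts are printed 1 higher than in the files, which count from 0 (end minus start equalled the RefSeq length for 9430 of 21415 loci, against 542 otherwise).

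Rows were joined by symbol; 22761 of 23852 names were in all 4 tables, and 99 with a status other than OK were left out. Rows with the same name were added up, which concerned 0 of the members. The filter kept genes reaching 1 FPKM in 2 or more libraries. limma 3.58.1 in R 4.3.3 was fitted to log2(FPKM + 1) with group as its one term and eBayes with a trend in variance, with Benjamini-Hochberg adjustment over all 13287 genes. This scale understates changes of low genes. All adjusted p-values come from this fit, and intervals are its 95% intervals.

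Low values gave the most frequent log2 ratio as 0 between 3 of the libraries and 0.2 for each of them over mutant replicate 2, so that library was somewhat deeper; absolute depth is unknown. The fit was first tested on simulated data with known changes. At an adjusted p under 0.05 it recovered 35 of 100 genes with a log2 change of 1 and 78 of 100 with 2. It also called 8 unchanged genes. A gene with a log2 change of 1 could therefore often miss the threshold.

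The members, role groups and marker lists were chosen with earlier results of these data known. In each role group, the member with the highest mean and the 2 with the largest change are given in full; others are given by level and counts. The pathway list names values for the 3 largest changes if none pass. A result for 1 further gene of the pathway list is not reported here. Alternatives changed the pseudocount (0.1), filter, scaling, variance model, rows per symbol, a replicate block and each library left out. Promoters are from RefSeq, GRCm38.p6, and were used for sequence only.

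Other marker lists gave the following log2 medians over tested genes: nephron progenitor 0.02, loop of Henle -0.06, collecting duct 0.004, stroma -0.18, erythroid 0.39, skeletal muscle -0.25, liver 0.74 and cell cycle 0.05. For liver, mutant replicate 2 stood apart, with a summed 85.0 FPKM against 35.9 to 49.7 in the others (Alb 21.1 FPKM there and 0.295 to 1.11 elsewhere). Genes of the adrenal cortex were at 0.692 FPKM or less, with 2 of 5 at 0 in every library.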

Additional observations from a re-analysis of the deposited data

How the results depend on the processing

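In the alternatives with all libraries, 0 members passed an adjusted p under 0.05 in either direction with limma. At an unadjusted p under 0.05 in limma, 2 members were lower and 0 higher in each, apart from the replicate block. The main fit had 4.57% of all genes lower and 2.67% higher at that p. With the replicate block, 3 members were lower and 1 higher, against 610 lower and 412 higher of all 13287 genes. Over all 12 alternatives, the median change of all members stayed between -0.11 and -0.04. Members with a negative change numbered 31 to 34 under the other scalings, against 33, and 25 (without control replicate 2) to 35 (without control replicate 1) with a library left out. Pklr and Idh1 stayed lower throughout, which with a library left out was fixed by their non-overlapping groups. In the alternatives with all libraries, their adjusted p in limma ran from 0.23 to 0.44 and from 0.18 to 0.42.

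Calls over all genes moved more. Lower genes numbered 6 with no filter and 7 without the variance trend, and higher genes 2 where all libraries had to reach 1 FPKM. Leaving out 1 library gave 0 to 17 lower and 0 to 4 higher genes. Without control replicate 1 and without control replicate 2, 0 genes passed, with 721 lower and 293 higher, and 1103 lower and 1192 higher, at an unadjusted p under 0.05; higher genes numbered 1 without mutant replicate 2. With the replicate number as a block, 3 lower and 3 higher genes passed and 0 members. Eno2 then had an unadjusted p of 0.027 and an adjusted p of 0.58 in limma. Aldoc, which was lower, had an unadjusted p of 0.038 and an adjusted p of 0.62 in the same fit. Libraries of the same number deviated together (r = 0.146 across 13287 genes, which are not independent), but with only a pair of numbers and no statement in the labels this is a hint, not a pairing. Among the 22 genes given in full, signs turned only when a library was left out, over log2 ranges of -0.0787 to 0.226 for Dld, -0.0926 to 0.0617 for G6pdx, -0.221 to 0.0266 for Ogdh, -0.102 to 0.324 for Sucla2, -0.0698 to 0.180 for Mdh1, -0.962 to 0.338 for Slc2a3, -0.135 to 0.0688 for Pdhb, -0.107 to 0.0325 for Idh2 and -0.0773 to 0.00307 for Taldo1. The cause was not tested.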
